A study of Homo sapiens with 16 samples.

Results

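The genes described here were 40 cell cycle genes chosen by name, of 60107 Ensembl genes listed in each of the 16 libraries. Of these, 19 are called the S-phase genes, and most encode proteins that license, start or carry out DNA replication. This class also holds E2F1, a transcription factor, CCND1, the cyclin of G1, and UHRF1, which maintains DNA methylation. The other 21 encode proteins of chromosome condensation and mitosis, called the G2/M genes. Cells of a growing culture make the S-phase transcripts when E2F transcription factors are released from the retinoblastoma protein family. They make the G2/M transcripts later, under control of the DREAM complex, B-MYB and FOXM1, many of them at promoters with a cell cycle homology region (CHR) or a CCAAT box. A culture that holds more cells in S phase or in mitosis therefore usually shows the members of that class moving together.

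The libraries held 3′ end sequence tags of cytoplasmic RNA. The cells were U2OS-TR, osteosarcoma cells of human origin with a stably expressed tetracycline repressor. The Control group (n = 5) and the Induced group (n = 5) came from a clonal line that also carries the ΔN-RNMT transgene behind a tetracycline-operated promoter, which encodes an inactive RNA cap guanine-N7 methyltransferase held in the cytoplasm. Induced cells were given 1 μg/ml doxycycline after 48 h of growth and collected 24 h later, and Control cells were left without it. The No Dox group (n = 3) and the With Dox group (n = 3) were the parental U2OS-TR line, which lacks the transgene and went through the same growth and treatment, so that the effect of doxycycline alone could be examined. The protocol recorded with the libraries lists doxycycline for every one of them, and the treatments used here are those of the titles and of the study's methods. The transgene line is 1 clone, and the parental libraries were sequenced elsewhere on another instrument with other read lengths, so that between lines these cannot be told apart. Each treatment comparison was made within a line.

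The transgene line libraries held from 12527183 to 23251834 gene counts each, and the parental libraries from 1473286 to 3214808. RNMT, whose level (CPM, the count scaled by sequencing depth) checks the labels, was 74.3 ± 22.4 CPM (SD, n = 5) in Control and 346 ± 78.0 (SD, n = 5) in Induced libraries, without overlap, so the labels held. Of 8 mesenchymal and bone lineage markers, VIM, COL1A1, SPARC and RUNX2 were above 1 CPM in Control libraries, and COL1A2 and BGLAP were at 0. The 8 markers summed to between 306 and 643 CPM in Control and between 493 and 885 CPM in Induced libraries. The 4 epithelial markers summed to between 5.13 and 12.8 CPM in Control and between 7.43 and 16.6 CPM in Induced libraries, most of it EPCAM (means of 7.86 and 12.1 CPM, against 7.70 and 17.3 CPM for RUNX2), with KRT5 at 0. The 5 blood markers summed to between 0.111 and 0.532 CPM in Control and between 0.597 and 0.712 CPM in Induced libraries. The part of these differences in the results was not tested. Control replicate 5 and Induced replicate 2 stood apart from their groups, as described with the called genes, and the counts of called genes are given with and without them. Growth rate and cell cycle phase were not measured, and in bulk RNA a change in the share of cells in a phase cannot be told apart from a change in the transcripts of each cell.

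The promoters of the genes are described by class. The classes are known for E2F control and for CHR or CCAAT promoters, so these motifs are not independent of the choice of genes. RefSeq promoters on GRCh38.p14, from 250 bases before to 50 after the start of transcription, were matched for 15 S-phase and 16 G2/M genes. Each was searched on both strands for the E2F-type motifs TTGGCGC and TTCCCGC, the CHR-type motif TTTGAA and the CCAAT box. An E2F-type motif stood in 11 of the 15 S-phase promoters (73.3%) and in 2 of the 16 G2/M promoters (12.5%), against 9.33% of all 27305 promoters of that length. The CHR-type motif stood in 1 of the 15 S-phase promoters (6.67%) and in 10 of the 16 G2/M promoters (62.5%), against 15.4% of all promoters. CCAAT was in 66.7% of the S-phase, 87.5% of the G2/M and 35.7% of all promoters.

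A pair from each class is printed, in which a shared motif stands before genes that moved in opposite directions in the Induced libraries. The motifs found are in capitals, on either strand, so that ATTGG is CCAAT and TTCAAA is TTTGAA read from the other strand. MCM6 (chr2:135876394-135876693, reverse strand) and E2F1 (chr20:33686336-33686635, reverse strand) both hold TTGGCGC, and BUB1B (chr15:40160819-40161118, forward strand) and CDC20 (chr1:43358731-43359030, forward strand) both hold the CHR-type motif.
MCM6: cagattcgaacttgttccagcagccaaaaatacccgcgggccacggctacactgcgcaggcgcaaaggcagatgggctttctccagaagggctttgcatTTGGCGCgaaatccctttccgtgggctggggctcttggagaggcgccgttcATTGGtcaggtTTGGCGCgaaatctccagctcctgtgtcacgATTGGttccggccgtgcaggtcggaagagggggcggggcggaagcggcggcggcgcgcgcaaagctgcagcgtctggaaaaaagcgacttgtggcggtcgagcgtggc
E2F1: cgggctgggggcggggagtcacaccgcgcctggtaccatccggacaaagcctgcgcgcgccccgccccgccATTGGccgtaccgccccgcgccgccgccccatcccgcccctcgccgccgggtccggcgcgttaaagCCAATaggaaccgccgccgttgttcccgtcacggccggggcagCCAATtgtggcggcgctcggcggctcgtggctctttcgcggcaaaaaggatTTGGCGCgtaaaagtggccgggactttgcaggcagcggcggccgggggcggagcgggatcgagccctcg
BUB1B: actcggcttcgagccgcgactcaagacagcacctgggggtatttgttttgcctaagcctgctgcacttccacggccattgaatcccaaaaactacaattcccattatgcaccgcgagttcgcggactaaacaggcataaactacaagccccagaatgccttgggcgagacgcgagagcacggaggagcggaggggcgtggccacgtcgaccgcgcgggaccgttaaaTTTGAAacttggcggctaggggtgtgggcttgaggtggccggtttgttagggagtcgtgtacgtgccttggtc
CDC20: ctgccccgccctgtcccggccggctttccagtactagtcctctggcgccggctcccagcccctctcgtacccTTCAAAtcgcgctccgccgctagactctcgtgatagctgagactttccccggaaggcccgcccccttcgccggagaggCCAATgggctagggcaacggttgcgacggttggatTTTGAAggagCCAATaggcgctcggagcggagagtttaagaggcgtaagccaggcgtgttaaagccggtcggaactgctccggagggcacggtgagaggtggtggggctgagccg
MCM6 and BUB1B rose with induction, and E2F1 and CDC20 fell, as described with their values. Over the called genes with a promoter in the table, an E2F-type motif was in 1 of the 4 that fell and in 4 of the 7 that rose, and the CHR-type motif in 1 of the 4 and in 3 of the 7. These are counts of letters in a window and do not show binding.

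Induction of ΔN-RNMT moved members of both classes in both directions. Counts were tested with edgeR's quasi-likelihood test over the 13038 genes with a base mean above 20, and a gene was called at a Benjamini-Hochberg adjusted p below 0.05. Of the 39 cell cycle genes tested, 6 fell (15.4%) and 9 rose (23.1%), where 19.8% of all genes tested fell and 20% rose. The S-phase genes had 3 that fell (MCM5, CCNE1 and E2F1) and 4 that rose (CCNE2, MCM6, PCNA and RRM1) of 18 tested. The G2/M genes had 3 that fell (TPX2, CDC20 and AURKB) and 5 that rose (HMGB2, KIF20A, BUB1, CDK1 and BUB1B) of 21. The median log2 fold change was 0.01 for the S-phase genes, 0.19 for the G2/M genes and 0.04 for all genes tested. The shares called were near those of all genes, and each class held genes that moved in both directions.

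**Figure D1:**
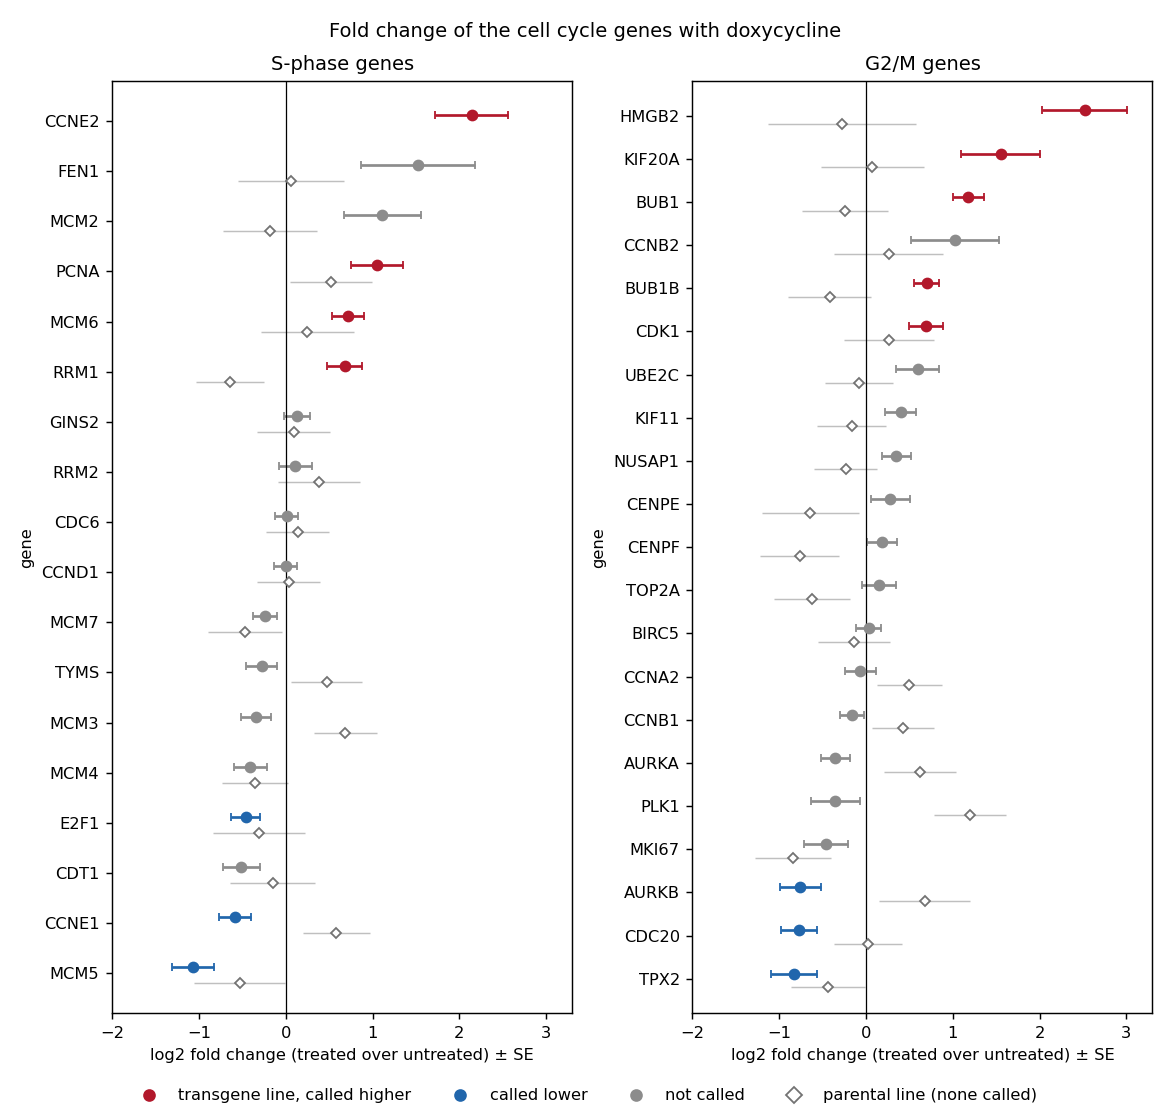
Log2 fold change with its standard error for the 39 genes tested, S-phase genes on the left and G2/M genes on the right, ordered by their value in the transgene line (circles, Induced over Control, n = 5 and 5). Diamonds give With Dox over No Dox in the parental line (n = 3 and 3). Red circles mark the 9 genes that rose and blue circles the 6 that fell, which stand at both ends of each class.

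Of the 39 genes tested, the Control and Induced libraries did not overlap for the spindle checkpoint genes BUB1 and BUB1B, a share near that of all genes. BUB1 (chromosome 2, 110637528 to 110678063, reverse strand, 25 exons, GRCh38) encodes a kinase that gathers checkpoint proteins at kinetochores. It was at 16.6, 15.4, 16, 17.3 and 22 CPM in Control replicates 1 to 5 and at 43.9, 27.2, 42.6, 46.1 and 37.6 CPM in Induced replicates 1 to 5. Every Induced library was above every Control library, and the log2 fold change was 1.18 (SE 0.18, adjusted p = 0.0175). BUB1B (chromosome 15, 40161023 to 40221123, forward strand, 23 exons) encodes BUBR1, which holds back the anaphase-promoting complex until chromosomes are attached. It was at 17.1, 17.5, 22.8, 19.2 and 22.4 CPM in Control and at 32.7, 28.4, 34.6, 35.9 and 29.5 CPM in Induced libraries. Its lowest Induced library was above its highest Control library, and the log2 fold change was 0.70 (SE 0.15, adjusted p = 0.0175). Of all genes tested, 3.08% were higher and 4.22% lower without overlap, where the cell cycle genes had 2 of 39 (5.13%) higher and 0 lower. BUB1B shares its strand with the readthrough transcript BUB1B-PAK6, and BUB1 has 1 pseudogene, so some of their tags may be counted elsewhere or left out.

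CDC20, the activator of the anaphase-promoting complex that BUBR1 restrains, moved the other way. CDC20 (chromosome 1, 43358981 to 43363203, forward strand, 11 exons) was at 284, 310, 259, 249 and 170 CPM in Control and at 127, 202, 159, 110 and 148 CPM in Induced libraries. The groups overlapped only through Control replicate 5 and Induced replicate 2, and the log2 fold change was -0.77 (SE 0.21, adjusted p = 0.0191). UBE2C, which supplies the same complex with ubiquitin, had a log2 fold change of 0.59 (SE 0.25) and was not called (adjusted p = 0.0726).

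Of the mitotic kinases and the chromosomal passenger complex, AURKB alone was called. AURKB (chromosome 17, 8204733 to 8210600, reverse strand, 9 exons) encodes the kinase that corrects faulty chromosome attachments. It was at 755, 825, 595, 684 and 428 CPM in Control and at 302, 584, 312, 311 and 438 CPM in Induced libraries. Control replicate 5 lay below Induced replicates 2 and 5, and the log2 fold change was -0.76 (SE 0.24, adjusted p = 0.0293). BIRC5, its survivin partner, had a log2 fold change of 0.03 (SE 0.15). AURKA and PLK1, kinases of spindle poles and mitotic entry, each had a log2 fold change of -0.35 with standard errors of 0.17 and 0.29. None of these was called, with adjusted p values of 0.876, 0.106 and 0.320.

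Among kinetochore, kinesin and spindle genes, TPX2 fell and KIF20A rose. TPX2 (chromosome 20, 31739271 to 31801805, forward strand, 18 exons) encodes the spindle assembly factor that activates Aurora A. It was at 327, 377, 518, 312 and 184 CPM in Control and at 154, 283, 154, 188 and 184 CPM in Induced libraries, where Control replicate 5 sat among the Induced values. The log2 fold change was -0.83 (SE 0.26, adjusted p = 0.0300). KIF20A, a kinesin of the central spindle, was between 10.9 and 13.0 CPM in Control replicates 1 to 4 and at 44.8 CPM in replicate 5. It was between 59.2 and 68.6 CPM in 4 Induced libraries and at 19.5 CPM in replicate 2, and the log2 fold change was 1.55 (SE 0.45, adjusted p = 0.0238). Without Control replicate 5 it was 2.17 and without Induced replicate 2 it was 1.77, and KIF20A was called in 4 of the 10 fits that left out 1 library each. KIF20A shares its locus with BRD8 and CDC23 on the opposite strand, and the use of strand in the counting was not given. CENPE, CENPF, KIF11 and NUSAP1 had log2 fold changes between 0.19 and 0.40 and were not called.

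CDK1, the kinase that drives entry into mitosis, rose by 0.70 on the log2 scale (SE 0.20, adjusted p = 0.0214), while none of its cyclins was called. CDK1 was between 114 and 218 CPM in Control and between 198 and 277 CPM in Induced libraries, so that the groups overlapped. CCNA2 and CCNB1 had log2 fold changes of -0.06 and -0.16 (SE 0.18 and 0.14). CCNB2 had 1.03 (SE 0.51, adjusted p = 0.115), and its Control libraries spread widely, at 112, 73.0, 21.1, 174 and 308 CPM.

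HMGB2, a chromatin protein of the chromosome structure genes, had the highest log2 fold change among the 39 genes, at 2.52 (SE 0.49, adjusted p = 0.0175). HMGB2 (chromosome 4, 173331376 to 173334432, reverse strand, 5 exons) was at 15.9, 20.6, 26.6, 19.8 and 43.7 CPM in Control and at 249, 27.2, 201, 113 and 137 CPM in Induced libraries. Induced replicate 2 sat within the Control range and the other Induced libraries above it. TOP2A, which untangles sister chromatids, had a log2 fold change of 0.15 (SE 0.20, adjusted p = 0.535), and MKI67, which coats mitotic chromosomes, had -0.46 (SE 0.25, adjusted p = 0.154), so that neither proliferation marker was called.

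The S-phase genes were split within the MCM helicase, the ring that unwinds DNA at the replication fork. MCM5 (chromosome 22, 35400134 to 35425431, forward strand, 17 exons) was at 153, 160, 224, 134 and 81.2 CPM in Control and at 57.3, 91.6, 68.8, 67.7 and 73.0 CPM in Induced libraries. Only Control replicate 5 and Induced replicate 2 overlapped, and the log2 fold change was -1.07 (SE 0.24, adjusted p = 0.0175). MCM6 (chromosome 2, 135839626 to 135876443, reverse strand, 17 exons) went the other way, at 13.0, 15.6, 13.8, 19.5 and 24.0 CPM in Control and at 28.9, 23.6, 27.5, 32.2 and 29.4 CPM in Induced libraries. Its groups met at the same pair of libraries, and the log2 fold change was 0.72 (SE 0.19, adjusted p = 0.0187). The other 4 subunits were not called. MCM3, MCM4 and MCM7 had log2 fold changes of -0.34, -0.41 and -0.24, while MCM2 had 1.11 (SE 0.45, adjusted p = 0.0633) with Control libraries from 24.8 to 224 CPM.

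PCNA, the sliding clamp of the replication fork, rose. PCNA (chromosome 20, 5114953 to 5126626, reverse strand, 6 exons) was at 41.0, 37.3, 41.4, 44.2 and 81.1 CPM in Control and at 113, 43.9, 115, 100 and 136 CPM in Induced libraries. Control replicate 5 was above Induced replicate 2, and the log2 fold change was 1.05 (SE 0.30, adjusted p = 0.0227). FEN1, the flap nuclease that finishes Okazaki fragments, varied more among Control libraries than any other of the 39 genes (SD of log2 CPM 1.60, n = 5). It was at 119, 90.6, 36.3, 174 and 749 CPM in Control and at 892, 392, 865, 709 and 508 CPM in Induced libraries, and its log2 fold change of 1.52 (SE 0.66) was not called (adjusted p = 0.0789). UHRF1, which maintains DNA methylation behind the fork, was between 0.607 and 1.59 CPM in the transgene line, below the base mean limit, and was not tested.

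Of the nucleotide synthesis genes, RRM1, the large subunit of ribonucleotide reductase, rose by 0.68 on the log2 scale (SE 0.20, adjusted p = 0.0243). RRM2, the small subunit whose level follows S phase, had a log2 fold change of 0.11 (SE 0.19, adjusted p = 0.641). TYMS, thymidylate synthase, had -0.28 (SE 0.18, adjusted p = 0.226). CDC6, CDT1 and GINS2, which license and fire origins, had log2 fold changes of 0.01, -0.51 and 0.13 and were not called.

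The cyclins E, which open S phase with CDK2, moved apart. CCNE1 (chromosome 19, 29811991 to 29824312, forward strand, 12 exons) was at 398, 407, 239, 408 and 314 CPM in Control and at 220, 306, 217, 199 and 236 CPM in Induced libraries. Control replicate 3 lay below Induced replicate 2, and the log2 fold change was -0.59 (SE 0.19, adjusted p = 0.0316). CCNE2 (chromosome 8, 94879770 to 94896678, reverse strand, 12 exons) was at 1.22, 0.819, 1.17, 1.79 and 2.73 CPM in Control and at 9.77, 2.12, 7.17, 9.36 and 6.29 CPM in Induced libraries, and its log2 fold change was 2.14 (SE 0.42, adjusted p = 0.0175). The Control values of CCNE2 rest on 14 to 63 counts per library, and INTS8 and NDUFAF6 overlap it on the opposite strand. E2F1 (chromosome 20, 33675477 to 33686385, reverse strand, 7 exons), the transcription factor that drives many S-phase genes, was at 87.6, 82.0, 103, 83.7 and 57.8 CPM in Control and at 62.9, 72.3, 54.6, 52.3 and 58.7 CPM in Induced libraries. Control replicate 5 sat among the Induced values, and the log2 fold change was -0.46 (SE 0.17, adjusted p = 0.0485). CCND1, the cyclin of G1, had a log2 fold change of 0.00 (SE 0.13).

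**Figure D2:**
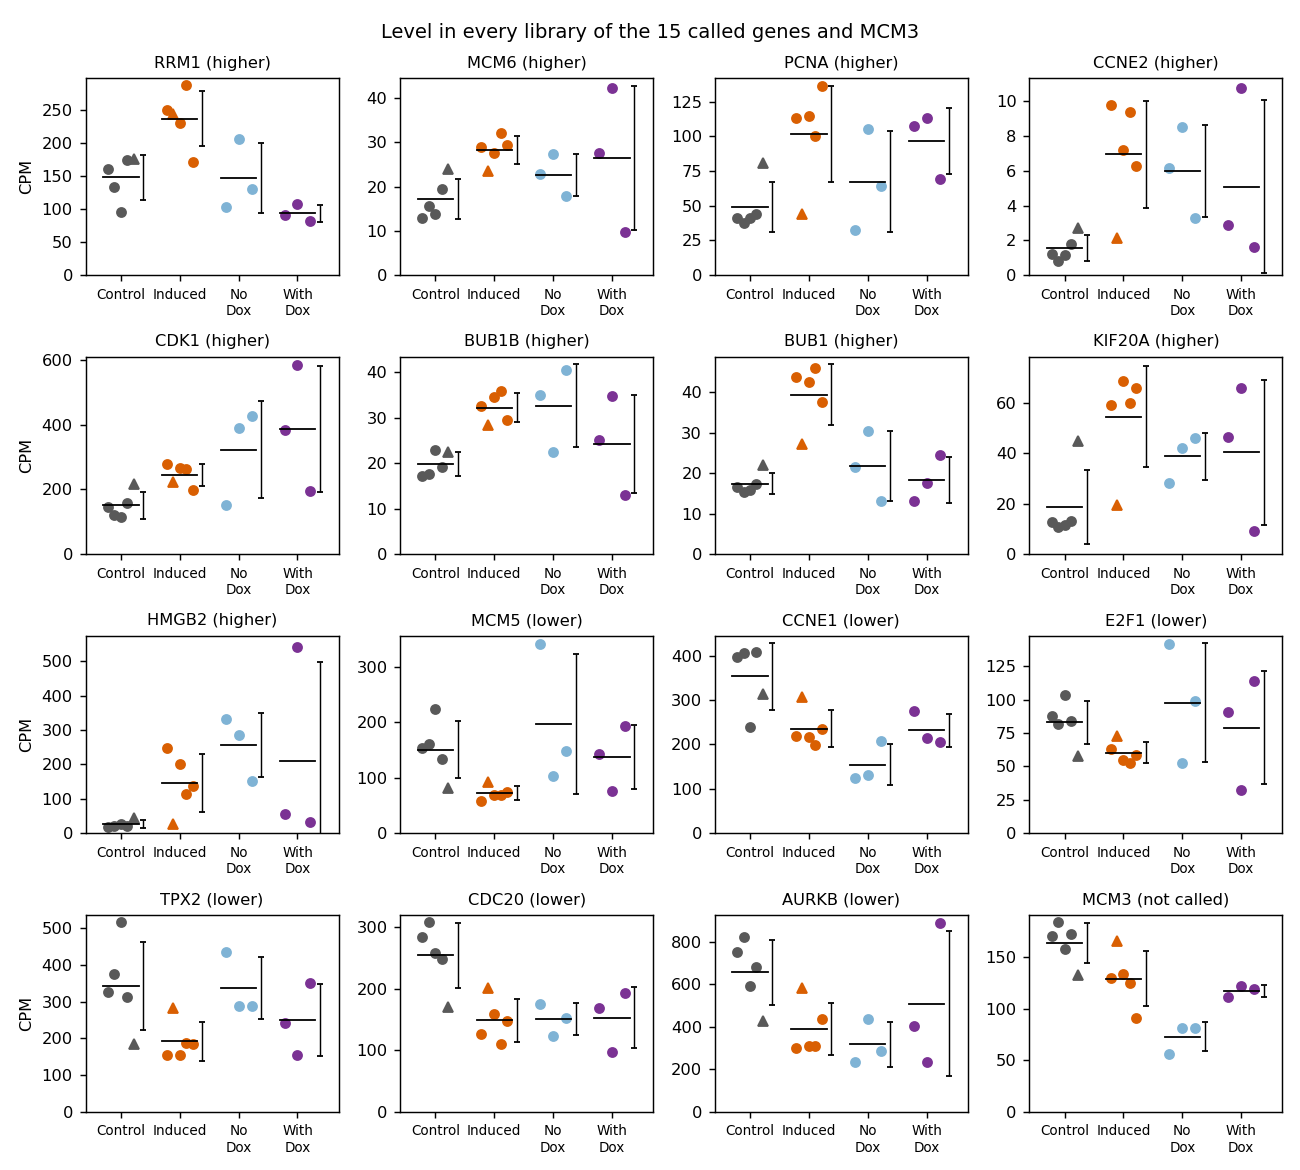
TMM-scaled level (CPM, linear axes from 0) in every library of the 15 called genes and of MCM3, with the mean (line) and SD (bar) of each group. Triangles mark Control replicate 5 and Induced replicate 2, which lie near the other group in most panels, while BUB1 and BUB1B keep their groups apart.

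The same pair of libraries recurred in these values. Over the 15 called genes, Control replicate 5 was nearer the Induced mean for 9 and Induced replicate 2 nearer the Control mean for 9, whereas Control replicate 3 and Induced replicate 5 were so for 1 gene each and the other libraries for 0. Without Control replicate 5, 10 of 39 genes fell and 14 rose, where 3555 and 4049 of all 12990 genes tested did. Without Induced replicate 2, 9 fell and 10 rose, where 3102 and 3251 of all 13014 genes tested did. With every library these calls over all genes were 2579 and 2604 of 13038, so they grew as well. The fold changes of the 15 called genes moved by less than 1.5 times when any library was left out, except that of KIF20A without Control replicate 5. Leaving out any of the other libraries gave between 1 and 4 that fell and between 4 and 10 that rose. Over all genes tested, those fits called between 929 and 2008 lower and between 916 and 1758 higher. MCM5, CCNE2, BUB1, BUB1B and HMGB2 were called with each of the 10 libraries left out in turn, with adjusted p values up to 0.0495. E2F1 was called in 2 of those 10 fits and CCNE1 and TPX2 in 3.

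Base composition moved with the direction of change. The canonical transcripts of the called genes that fell had a median GC content of 56.0% (46.6% to 61.6%), and those that rose had 42.6% (34.6% to 48.2%). Over all genes tested the medians were 57.0% for those that fell and 42.5% for those that rose. Across the 39 genes, which share the same 10 libraries, the Spearman correlation of log2 fold change with GC content was -0.52, and across 12922 genes it was -0.43. For each library, the deviation of its genes from their mean over the 10 libraries was set against GC content. The slope was between 0.16 and 0.25 log2 units per 10 percentage points in Control replicates 1 to 4 and -0.04 in Control replicate 5. It was between -0.28 and -0.08 in Induced replicates 1, 3, 4 and 5 and 0.01 in Induced replicate 2. These slopes are relative to the shared mean, so positive values in some libraries entail negative values in others. In the parental line, set against the mean of its own libraries, they ranged from -0.39 (With Dox replicate 2) to 0.33 (With Dox replicate 3). With transcript length, the Spearman correlation of log2 fold change was -0.58 across 38 cell cycle genes in the parental line and -0.21 across 9088 genes. In the transgene line it was -0.02 and 0.17. The part of length in the parental values was not tested. With offsets for GC content in the fit of the transgene line, 6 of the 39 genes fell and 7 rose. The 6 were not all the same genes as before, with 2 S-phase and 4 G2/M genes where the fit without offsets had 3 and 3. Over all 13038 genes tested, 1928 fell and 1548 rose in that fit. BUB1 (0.85), BUB1B (0.41), HMGB2 (2.08), CCNE2 (1.56) and MCM5 (-0.80) kept their calls at these log2 fold changes, while E2F1 (-0.03, adjusted p = 0.853), CDK1 (0.16, adjusted p = 0.353), RRM1 (0.38, adjusted p = 0.110) and AURKB (-0.53, adjusted p = 0.0629) lost them.

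**Figure D3:**
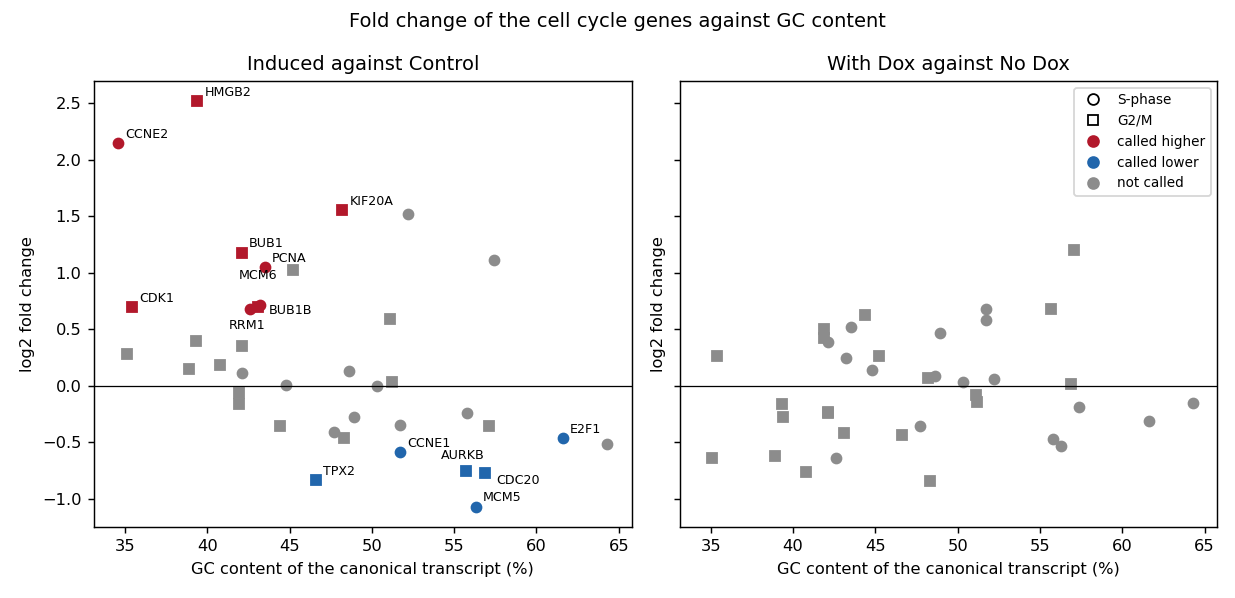
Log2 fold change of each gene against the GC content of its canonical transcript, for the transgene line (left, 39 genes) and the parental line (right, 38 genes). Circles are S-phase and squares G2/M genes. In the transgene line the called genes that rose lie between 34.6% and 48.2% GC and those that fell between 46.6% and 61.6%. The Spearman correlation is -0.52 there against 0.16 in the parental line. With transcript length, not shown, it is -0.02 and -0.58.

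S-phase and mitotic genes were then compared as classes. The S-phase score, the mean log2 CPM of the 19 genes in a library, was 6.02 ± 0.16 (SD, n = 5) in Control and 6.28 ± 0.08 (SD, n = 5) in Induced libraries, and Control replicate 5 (6.21) was above Induced replicate 2 (6.16). The G2/M score, over the 21 genes, was 6.62 ± 0.07 (SD, n = 5; 6.52 to 6.70) in Control and 6.91 ± 0.09 (SD, n = 5; 6.77 to 7.01) in Induced libraries, which did not overlap. No p was computed for the scores, since the genes were chosen with results known, and the mean log2 fold change of all genes tested was itself 0.13, against 0.20 for the S-phase and 0.28 for the G2/M genes. The S-phase minus G2/M score was -0.60 ± 0.09 (SD, n = 5) in Control and -0.63 ± 0.07 (SD, n = 5) in Induced libraries. The difference of -0.03 was smaller than the SD of either group, and it was -0.004 without Control replicate 5 and -0.01 without Induced replicate 2. With offsets for GC content it was 0.15, of the opposite sign and larger than those SDs, so the direction of the S-phase against the mitotic genes depended on that setting. The median log2 fold change of the G2/M genes was -0.05 in the fit with those offsets, against 0.19 without them. With the offsets it was -0.02 for the S-phase genes and -0.03 for all genes tested, so the rise of the G2/M genes as a class also depended on that setting.

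**Figure D4:**
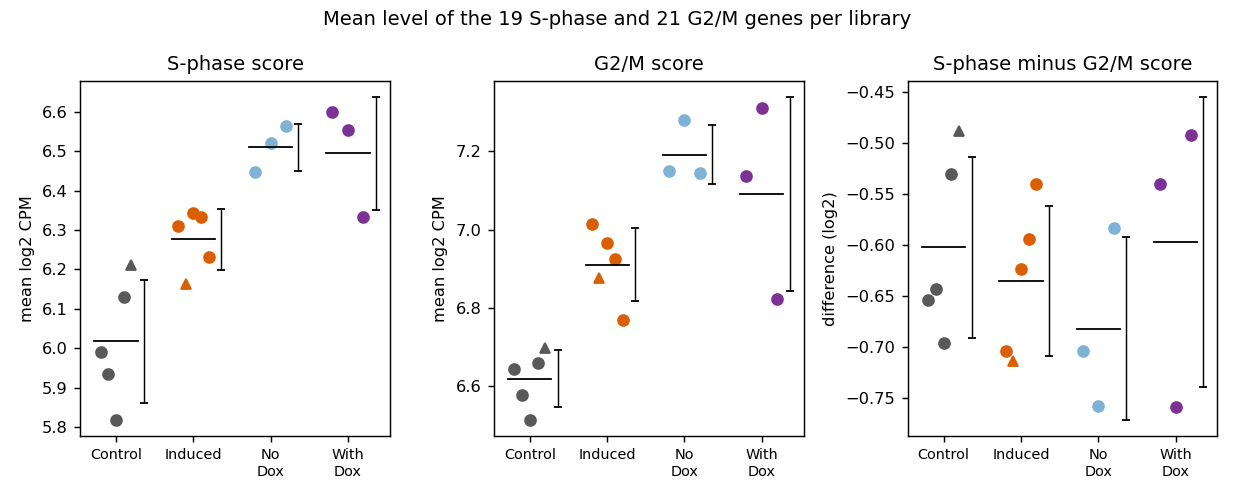
Mean log2 CPM of the 19 S-phase genes (left) and the 21 G2/M genes (middle) and their difference (right) in each library, with the mean (line) and SD (bar) of each group. The axes do not start at 0, and triangles mark Control replicate 5 and Induced replicate 2. Values are without offsets for GC content. The G2/M score of every Induced library is above every Control library, while the difference between the scores overlaps in all groups.

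In the parental line doxycycline gave no call among the cell cycle genes. Of 9124 genes tested 0% were called with edgeR's quasi-likelihood test and Benjamini-Hochberg adjustment, although 267 genes had an unadjusted p below 0.05, and DESeq2 called 1 gene. Of the 38 cell cycle genes tested, without UHRF1 and CCNE2, 0 were called by either tool and 1 had an unadjusted p below 0.05. This gene was PLK1, at 33.8, 71.3 and 67.1 CPM in No Dox and at 128, 112 and 158 CPM in With Dox libraries, with a log2 fold change of 1.20 (SE 0.41, adjusted p = 0.997). Without overlap between groups, 5 of the 38 genes (MCM3, TYMS, CCNB1, AURKA and PLK1) were higher with doxycycline (13.2%) and 0 were lower, against 4.87% and 4.66% of all genes tested. Signs of RNA fractionation and quality also differed between these libraries. The 4 nuclear-retained RNAs summed to between 471 and 1663 CPM in No Dox and between 270 and 453 CPM in With Dox libraries, MALAT1 averaging 745 and 125 CPM, and mitochondrial transcripts took 1.76% to 9.38% and 3.68% to 5.39% of the counts. Their part in the values of the cell cycle genes was not tested. TYMS, the S-phase enzyme that makes thymidylate, was at 1069, 1237 and 1254 CPM in No Dox and at 1981, 1341 and 1609 CPM in With Dox libraries. AURKA was at 173, 368 and 373 CPM without and at 531, 435 and 439 CPM with doxycycline, and CCNB1 at 108, 96.3 and 77.9 against 118, 124 and 136 CPM. None of these was called, with an adjusted p of 0.997 each.

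The genes called in the transgene line overlapped between groups in the parental line wherever they were tested. BUB1 was at 21.5, 30.5 and 13.2 CPM in No Dox and at 13.2, 17.5 and 24.4 CPM in With Dox libraries. BUB1B was at 35.1, 22.6 and 40.4 CPM without and at 25.0, 34.7 and 13.0 CPM with doxycycline. Both checkpoint genes thus had log2 fold changes below 0, of -0.24 (SE 0.49) and -0.42 (SE 0.48), that were smaller than their standard errors. HMGB2 was at 331, 285 and 152 CPM in No Dox and at 55.4, 543 and 32.6 CPM in With Dox libraries, so that replicates of 1 group spanned more than the distance between groups. MCM5 was at 341, 103 and 148 against 143, 75.8 and 192 CPM, and CDC20 at 175, 124 and 153 against 169, 97.3 and 193 CPM. Over the 38 genes tested in both lines, 9 had log2 fold changes above 0 and 7 below 0 in both, 12 were above 0 only in the transgene line and 10 only in the parental line.

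As classes, the genes overlapped between No Dox and With Dox libraries. The S-phase minus G2/M score was -0.68 ± 0.09 (SD, n = 3) in No Dox and -0.60 ± 0.14 (SD, n = 3) in With Dox libraries, a difference of 0.08. The parental libraries held fewer counts, so that changes of the size seen for many called genes may not have been detectable there.

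Whether the lines differed in response was tested with the interaction term of a fit over all 16 libraries. Tags that fell on no gene numbered 1.11 to 1.5 per gene count in the parental libraries. In the transgene line libraries they numbered 0.0744 to 0.106, and the part of this difference in the test was not tested. Of 12265 genes, 2.2% had a lower and 0.775% a higher response in the transgene line. Of 39 cell cycle genes, 2 had a lower response (5.13%) and 0 a higher one. MCM3 (chromosome 6, 52264014 to 52284881, reverse strand, 17 exons) was at 171, 185, 158, 172 and 133 CPM in Control, 130, 166, 134, 125 and 91.3 in Induced, 56.6, 81.1 and 81.5 in No Dox and 111, 122 and 119 CPM in With Dox libraries. Every With Dox library was above every No Dox library, while Control and Induced overlapped, and the response differed by -1.26 on the log2 scale (SE 0.33, adjusted p = 0.04998). CCNE1, at 123, 132 and 208 CPM in No Dox and 275, 214 and 206 CPM in With Dox libraries, differed by -1.39 (SE 0.37, adjusted p = 0.04997). Both lie at the threshold, and each had an adjusted p below 0.05 in few of the 24 alternative fits, MCM3 in 4 and CCNE1 in 5. For BUB1 and BUB1B the difference between lines was 1.19 and 0.89, with adjusted p values of 0.0874 and 0.145, so that their rise was not shown to differ from the parental line. AURKB and PLK1 had differences of -1.68 and -1.80 (adjusted p = 0.0878 and 0.0531).

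Further genes of the same processes were counted from lists that do not contain the 40 genes. Of 57 other S-phase genes tested in the transgene line, 5 fell and 19 rose (33.3%), with a median log2 fold change of 0.27. Of 63 other G2/M genes, 6 fell and 24 rose (38.1%), with a median of 0.36. Of 37 cell cycle brakes and regulators tested, 7 fell and 16 rose (43.2%), with a median of 0.69. All these shares of genes that rose were above the 20% of all genes, and with offsets for GC content the lists were not recounted.

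Named by size among called genes without overlap, the other S-phase genes held DBF4, which activates the kinase CDC7 at origins (0.79, SE 0.17), and POLD3, a subunit of DNA polymerase delta (0.66, SE 0.14). The other G2/M genes held KIFC1, a minus-end kinesin of the spindle (1.16, SE 0.35), PBK, a mitotic kinase (0.76, SE 0.19), and SPC25, a subunit of the NDC80 complex (0.70, SE 0.18), all of which rose. PTTG1, the securin that guards sister cohesion until anaphase, fell, from 408 ± 52.0 to 274 ± 26.0 CPM (SD, n = 5 each; log2 fold change -0.57, SE 0.14). CENPM, a centromere protein, fell by 0.40 on the log2 scale (SE 0.13). Of the regulators, E2F3, an activator E2F, rose from 44.5 ± 14.6 to 104 ± 25.3 CPM (SD, n = 5 each; log2 fold change 1.23, SE 0.24).

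CDKN1A, which encodes the CDK inhibitor induced by p53, fell from 989 ± 230 CPM in Control to 513 ± 117 CPM in Induced libraries (SD, n = 5 each; log2 fold change -0.95, SE 0.21, adjusted p = 0.0175). Its groups overlapped, with Control from 640 and Induced up to 696 CPM. FOXM1, the activator of many G2/M genes, had a log2 fold change of 0.36 (SE 0.18, adjusted p = 0.117) and was not called. In the parental line CDKN1A had a log2 fold change of 0.58 (SE 0.42) and FOXM1 of -0.83 (SE 0.43), and neither was called. PTTG1 had 1.07 there (SE 0.39) and was not called either. By the interaction term, the response of CDKN1A, PTTG1 and CENPI was called lower in the transgene line and that of E2F3 and NCAPH higher. These were 2 lower and 1 higher of 62 other G2/M genes and 1 and 1 of 37 regulators. Of 57 other S-phase genes, 0 were called lower and 0 higher. Over all 12265 genes 270 were called lower and 95 higher in that fit, and 0 and 0 without Control replicate 1.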

How the data were processed

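Libraries were made from cytoplasmic poly(A) RNA with the QuantSeq REV kit, which places tags at 3′ ends. The authors deposited unnormalized counts of tags on each Ensembl gene, from the QuantSeq pipeline of Lexogen with GRCh38. The aligner, annotation release and use of strand were not given in the sources used here. Between 0.561 and 1.44 tags per gene count aligned to several places and were left out. Names, coordinates and GC content came from GENCODE 44, which matched 56104 of 60107 genes and all 40 genes described. The 92 spike-in and 5 summary entries were left out.

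Genes with a base mean above 20 were fitted with edgeR 4.0.16 in R 4.3.3 (quasi-likelihood test, TMM scaling), with Benjamini-Hochberg adjustment over all genes tested. CPM are TMM-scaled, log2 CPM used a prior count of 2, and a standard error is the log2 fold change over the root of its F statistic. The biological coefficient of variation (edgeR, common to all genes) was 0.32 for the transgene line and 0.444 for the parental libraries. Replicate pairs differed by more than sampling noise (lowest chi-square per degree of freedom 4.26), so none was counted as a duplicate. The study describes the transgene line replicates as biological and the parental ones as separate cultures. The fits were tested on simulated data. Alternatives used DESeq2 1.42.0, DESeq2's size factors, total counts, no filter or edgeR's filterByExpr, GC offsets (lowess span 0.5), a block for the replicate number, sva 3.50.0 with 1 surrogate variable, and each replicate left out.

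The genes, lists and tests were chosen with earlier results of these data known. All 40 genes were accounted for. Values per library are given for called genes whose groups did not overlap, for the 3 called genes with the lowest adjusted p per direction and class, and for genes called in the test between lines. FEN1, CCNB2, KIF20A and PLK1 were added after their values were seen, and so were the parental line values of TYMS, AURKA and CCNB1. Of the other lists, up to 3 called genes per direction with the largest change and no overlap were named, and CDKN1A and FOXM1 in any case.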

Additional observations from a re-analysis of the deposited data

Results flagged for a closer look

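Of 80 groups of 5 libraries examined (40 genes in Control and in Induced), 11 held a library far from the rest. In these the gap to the nearest library made up more than 0.71 of the group's range. Gap and range were taken on the log2 CPM scale, while the levels below are in CPM. Chance flags about 1 in 20 groups. Control replicate 5 was high for PCNA (0.782 of the range; 81.1 against 44.2 CPM) and KIF20A (0.876; 44.8 against 13.0 CPM) and low for PLK1 (0.757; 55.2 against 82.2 CPM). Induced replicate 2 was low for MCM2 (0.741; 133 against 217 CPM), PCNA (0.730; 43.9 against 100 CPM) and KIF20A (0.882; 19.5 against 59.2 CPM). Control replicate 3 was high for TYMS (0.769; 622 against 423 CPM) and KIF11 (0.816; 34.9 against 23.0 CPM) and low for UBE2C (0.729; 138 against 256 CPM). Induced replicate 5 was low for CENPE (0.842; 17.8 against 39.0 CPM) and high for UBE2C (0.729; 589 against 368 CPM).

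Of the 39 cell cycle genes tested, the response to doxycycline differed between the lines, by the interaction term, for MCM3 and CCNE1. The differences were -1.26 and -1.39 on the log2 scale (transgene minus parental line), both with an adjusted p just under 0.05.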

How the results depend on the processing

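In the transgene line, with 6 of 39 genes called lower and 9 called higher, total counts as scaling gave 2 lower and 13 higher. With 1 surrogate variable 0 and 0 were called (16 with an unadjusted p below 0.05). Over all 13038 genes that fit called 0 lower and 1 higher. Leaving out each replicate gave between 1 and 10 lower and between 4 and 14 higher. Over all genes tested, the fits without a replicate gave between 929 and 3555 lower and between 916 and 4049 higher. Total counts moved the median over all genes from 0.04 to 0.28 on the log2 scale, and the calls over all genes from 2579 lower and 2604 higher to 1401 and 4022. The replicate number as a block gave 5 lower and 13 higher (2260 and 2928 over all genes), and it changed no direction. Same-numbered libraries did not deviate together (correlations from -0.373 to 0.625 in the transgene line and from -0.42 to 0.237 in the parental line), so the numbers were not taken to pair them.

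Of 304 alternative fits of the 16 genes called in either test, 215 kept their side of the threshold, 87 lost the call, 2 gained one (MCM3, without Control replicate 5 or Induced replicate 2) and 0 reversed. In the parental line no alternative called a cell cycle gene. For the difference between lines, with 2 lower and 0 higher, the count lower was 7 with DESeq2, 1 with the replicate block, and 0 with DESeq2's size factors, total counts, filterByExpr, no filter, GC offsets, and GC offsets with the replicate block. The count higher was 3 with DESeq2 and 2 with total counts, which called 44 lower and 462 higher over all 12265 genes. Leaving out each replicate gave between 0 and 8 lower and between 0 and 4 higher. The largest of these came without Control replicate 5 (8 lower, 4 higher), Induced replicate 2 (5 lower) and With Dox replicate 2 (4 lower, 4 higher). Over all genes tested those fits called 1266 lower and 1024 higher, 758 and 412, and 854 and 793, in that order. Over all genes tested, leaving out each replicate gave between 0 and 1266 lower and between 0 and 1024 higher. DESeq2 gave 891 lower and 587 higher of 12265 genes. The S-phase minus G2/M difference went from -0.03 to 0.15 with GC offsets. The causes were not tested. The parental libraries held fewer counts and 3 replicates per group, which limits what could be called there.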
